A study of Mus musculus with 8 samples.

Results

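The comparison described here sets mouse neutrophils from which the small GTPase Arf6 had been deleted against neutrophils of mice that carry Cre recombinase and no floxed allele. It used 5 of the 8 arrays of the series. The 3 conditional knockout (cKO) pools came from mice labelled flox+/+Cre+/+, homozygous for floxed Arf6 and for Cre, and the 2 Cre control pools from mice labelled flox-/-Cre+/+. Both groups therefore carry Cre, and the floxed allele is what separates them by label. Arrays were chosen by title and genotype label, because the source field contradicts both of them on all 8 samples. The remaining 3 arrays, flox controls (flox+/+Cre-/-), entered the estimate of the spread, and their levels are given only side by side. Each array held RNA of neutrophils pooled from 5 mice, collected after lipopolysaccharide (LPS) injection into an air pouch, a skin cavity that leukocytes enter, and purified by negative selection to 98% Ly6G-positive cells. The study stated 3 pools per genotype, and the third Cre control pool was not analysed here. The sources used here give neither the promoter that drives Cre nor the age of the mice.

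ARF6 is a GTPase of the plasma membrane and recycling endosomes that switches between a GDP-bound and a GTP-bound form. Exchange factors such as cytohesins load it with GTP, and GTPase-activating proteins return it to the GDP-bound form. ARF6 acts in receptor recycling, in phosphoinositide and actin remodelling and in secretion. LPS is sensed by Toll-like receptor 4, which signals at the plasma membrane through MyD88 to NF-kB and from endosomes through TRIF to type I interferon. Interferons in turn induce a large set of antiviral genes, many of them through a promoter sequence called the interferon-stimulated response element. Neutrophils are glycolytic cells with preformed granules and secrete cytokines and chemokines when activated.

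All values are log2 signals of Affymetrix Mouse Gene 2.0 ST arrays, on which a difference of 1 is a 2-fold difference. Array medians of the 8 arrays lay between 5.41 and 5.48, and correlations over probe sets between the 5 arrays compared were 0.98 to 0.99. Neutrophil genes were abundant in every pool: S100a8 read 13.10 to 13.36 and Csf3r 13.23 to 13.46 in the 5 arrays, and all 24 neutrophil core genes measured lay above the median of all values (5.45) in each. One pool stood apart. In cKO replicate 1 the Y-linked gene Eif2s3y read 4.08, against 8.66 to 10.04 in the other 4 arrays, and the X inactivation transcript Xist read 10.21, against 7.84 to 9.39. Results are therefore also given without this pool, and without other single pools where these moved a result.

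Arf6 was lower in the cKO, as the labels have it. Its probe set 17275925 (gene identifier 11845, chromosome 12) read 6.49, 6.06 and 6.20 in the cKO pools and 7.79 and 7.86 in the Cre control pools. The groups did not overlap, and the lowest Cre control lay more than 1 log2 unit above the highest cKO pool. The fold change was -1.57 on the log2 scale (SE 0.19, 95% interval -2.0 to -1.2), a 2.98-fold lower signal with an adjusted p of 0.0283 (limma). A second Arf6 probe set read 6.49, 6.13 and 6.25 against 6.33 and 6.33, a difference of -0.04 (SE 0.19, adjusted p = 0.964). The sources used here do not say which part of the gene each probe set reads, nor whether that part is deleted. Without cKO replicate 1 the difference of the first was -1.69 (SE 0.20) with an adjusted p of 0.0553, and its adjusted p reached 0.407 without Cre control replicate 1.

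Of 14002 probe sets tested, 10 passed at an adjusted p under 0.05, a share of 0.0714%, and each belonged to a different gene. Higher in the cKO were 7 (0.050%) and lower were 3 (0.0214%). Besides Arf6, the lower ones were Gbp8, a guanylate-binding protein of the interferon-inducible GTPase family, and the predicted X-linked gene Gm6568, whose call rests on a signal seen in the Cre control pools alone. The higher ones were Emilin2, Gpat3, Bmpr1a, Prok2, Bend4, the small nucleolar RNA Snord53 and the unannotated transcript 1700047M11Rik. No call was left when cKO replicate 1 or either of the Cre controls was omitted, although 1495 (cKO replicate 1), 767 (Cre control replicate 1) and 1378 probe sets (Cre control replicate 2) then had an unadjusted limma p under 0.05. Omitting flox control replicate 2 gave 3 calls, omitting flox control replicate 1 gave 32 and omitting cKO replicate 3 gave 67.

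**Figure D1:**
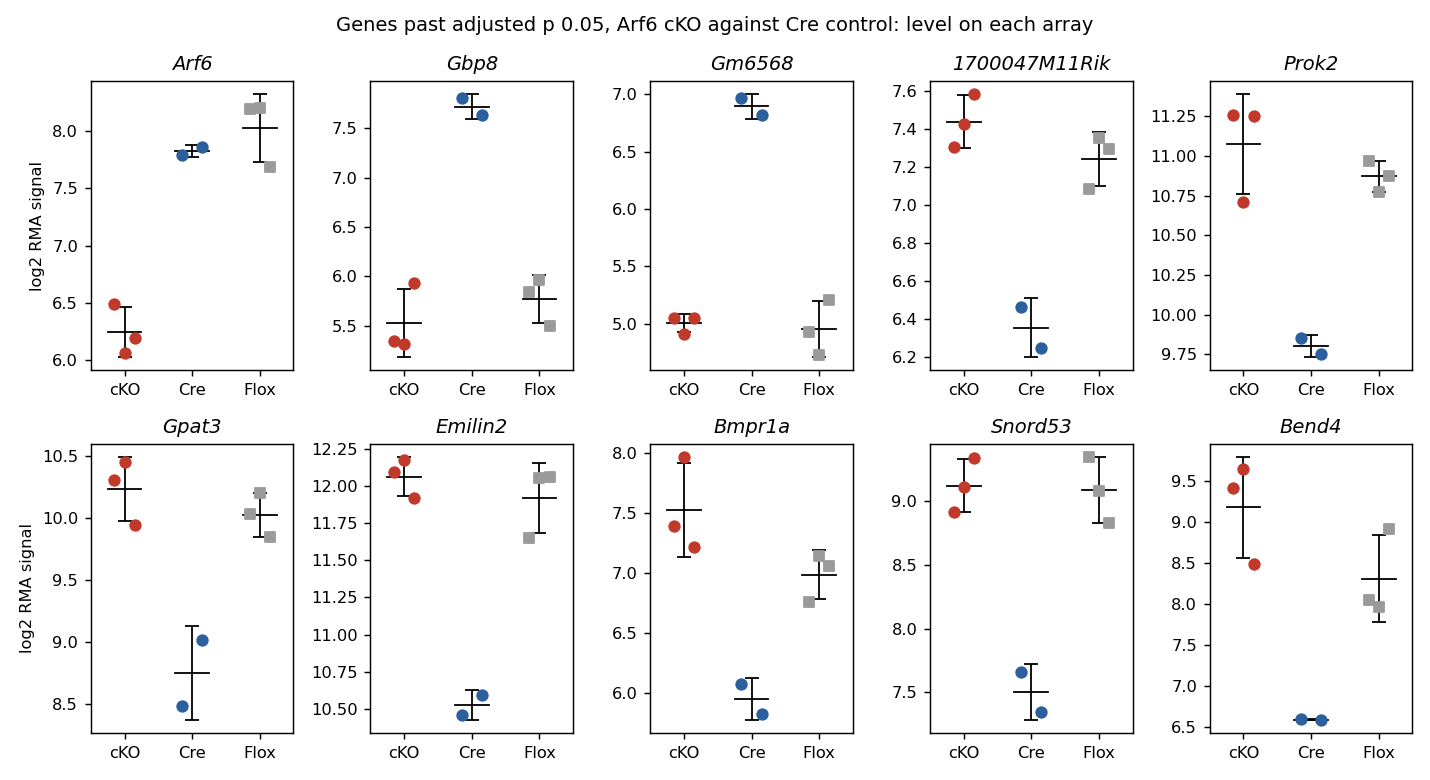
Log2 signal of the 10 genes past an adjusted p of 0.05, one panel per gene with its own axis range. Red points are the 3 cKO pools, blue points the 2 Cre control pools and grey squares the 3 flox control pools; bars are the mean and SD. In each panel the cKO and Cre control points do not overlap, and in all panels but that of Arf6 the flox control mean lies nearer to the cKO mean than to the Cre control mean.

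Gbp8 read 5.34, 5.32 and 5.93 in the cKO pools and 7.81 and 7.63 in the Cre control pools. The difference was -2.19 on the log2 scale (SE 0.21, adjusted p = 0.0099). Its signal lay below the median of all values in 2 cKO pools and close above it in the third, a level at which the array may not resolve a further fall, so the fold is best read as a lower bound. Guanylate-binding proteins attack vacuoles that hold microbes and take part in inflammasome activation. Gm6568 passed the filter on signal, a value above 5.45 on at least 2 arrays, only through the 2 Cre control pools, so among genes that passed it had to read higher there, and its call is given as a description. It read 5.05, 4.91 and 5.05 in the cKO pools, all below the median of all values, and 6.97 and 6.82 in the Cre control pools. The fitted difference (log2 -1.89, SE 0.16, adjusted p = 0.005) is against a level that may be background, and no fold is read from it.

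Emilin2, an extracellular matrix glycoprotein, read 12.10, 12.18 and 11.92 in the cKO pools against 10.45 and 10.59 in the Cre control pools. It rose 2.91-fold (log2 1.54, SE 0.16, adjusted p = 0.0133) at a level that was high in both groups. Prok2, a secreted peptide made by neutrophils that attracts myeloid cells and promotes vessel growth, read 11.26, 10.71 and 11.25 against 9.85 and 9.75. It rose 2.41-fold (log2 1.27, SE 0.18, adjusted p = 0.0495). Both encode secreted proteins, and for both every cKO pool lay well above the Cre control pools.

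Gpat3, an acyltransferase that starts glycerolipid synthesis, read 10.31, 10.45 and 9.94 in the cKO pools against 8.48 and 9.02 in the controls, a 2.79-fold rise (log2 1.48, SE 0.20, adjusted p = 0.0495). Bmpr1a, a type I receptor for bone morphogenetic proteins, read 7.39, 7.97 and 7.22 against 6.07 and 5.83, a 2.98-fold rise (log2 1.58, SE 0.22, adjusted p = 0.0495). Bend4, which codes for a BEN domain protein, had the largest fold change of the 10: 9.41, 9.64 and 8.48 against 6.59 and 6.58, or 6.02-fold (log2 2.59, SE 0.35, adjusted p = 0.0495). Its second probe set read 10.03, 10.06 and 9.16 against 7.47 and 7.60 (log2 2.21, SE 0.34, adjusted p = 0.0548). The separation was thus seen on both Bend4 probe sets, 1 just inside and 1 just outside the threshold.

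Snord53, which guides chemical modification of ribosomal RNA, read 8.92, 9.11 and 9.34 against 7.66 and 7.35 (log2 1.62, SE 0.19, adjusted p = 0.0266). 1700047M11Rik on chromosome 1 read 7.31, 7.43 and 7.58 against 6.46 and 6.24 (log2 1.09, SE 0.14, adjusted p = 0.0495). Across 20 alternative settings (19 for Bend4), Gm6568 and Emilin2 kept their call in 17, Gbp8 and Snord53 in 16 and Arf6 in 15, while the others kept it in 9 to 11. In 9 of the 10 genes, all but Arf6, the mean of the flox control pools was nearer to the cKO mean than to the Cre control mean; for Gbp8 the flox control pools read 5.84, 5.97 and 5.50, and for Emilin2 11.65, 12.05 and 12.06. The cKO and flox control share the floxed allele, which the Cre control lacks by label, so the loss of Arf6 and anything else that comes with this allele cannot be told apart between the cKO and the Cre control.

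The 10 calls sat on top of many smaller differences. With 1 probe set per gene, 13296 genes were tested, and 1805 of them (13.6%) had an unadjusted limma p under 0.05. Of these 1026 read higher in the cKO (7.72%) and 779 lower (5.86%), a split that became 1242 higher and 599 lower when each array was centred on its median. The 3 cKO pools lay above both Cre controls in 18.8% of genes and below both in 15.9%. Log2 fold changes below 0 were found in 47.7% of genes, and the median of all genes was 0.01. These shares are the background for the gene groups below, whose members were chosen with earlier results of these data known. At an adjusted p under 0.1 there were 36 probe sets, 20 higher and 16 lower, and at an unadjusted p under 0.05 with more than a 2-fold difference 74 genes higher and 91 lower. The background itself moved when a pool was left out, and list counts under an omission are to be read beside it. Without cKO replicate 1, 5.87% of all genes read higher and 4.88% lower at an unadjusted limma p under 0.05. Without cKO replicate 2 these were 5.59% and 3.87%, and without cKO replicate 3 9.36% and 6.97%. Both shares also fell without either Cre control pool, which leaves 1 control pool.

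**Figure D2:**
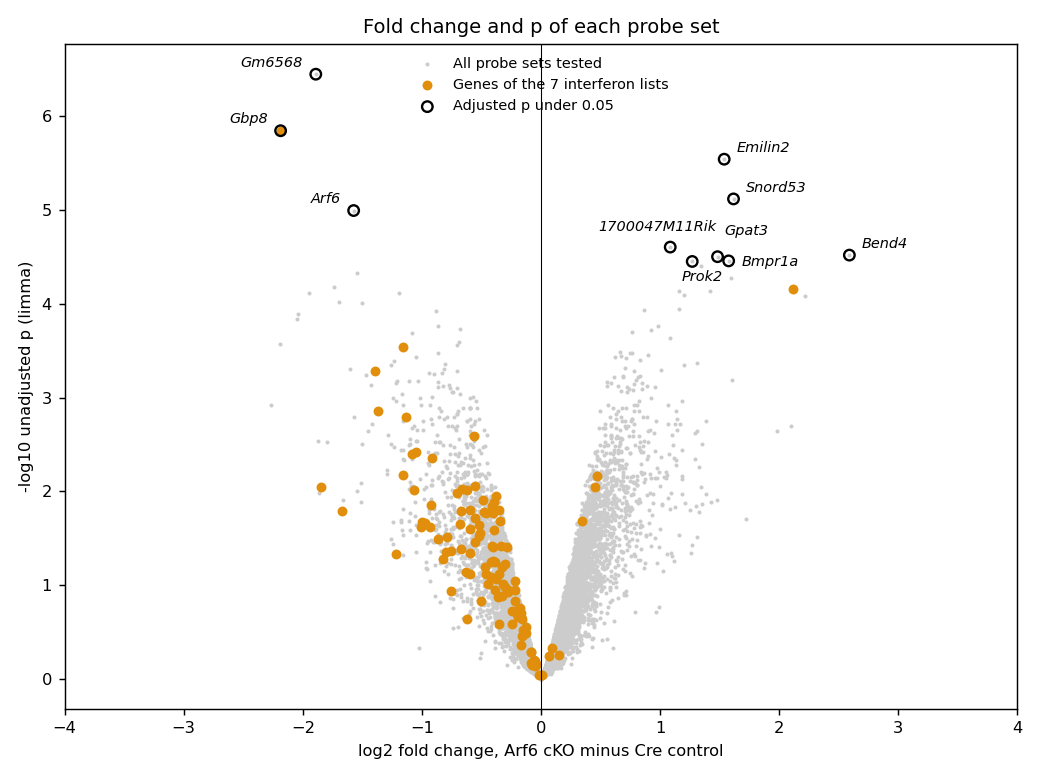
Log2 fold change (cKO minus Cre control, horizontal) against -log10 of the unadjusted limma p (vertical) for each probe set tested. Black rings mark the 10 genes past an adjusted p of 0.05, and orange points are genes of the 7 interferon lists, of which 106 of 114 lie left of 0.

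None of the genes named next passed at 0.05. Highest ranked on the higher side was Sesn2, a stress-induced inhibitor of the growth kinase complex mTORC1, which read 9.59, 9.57 and 9.17 against 7.83 and 8.36 (log2 1.34, SE 0.19, adjusted p = 0.0506). Smpd5, a sphingomyelinase, followed with 8.45, 9.10 and 8.19 against 6.85 and 7.12 (log2 1.59, SE 0.23, adjusted p = 0.0548). Trim12c read 8.67, 9.79 and 9.41 against 7.38 and 6.96 (log2 2.12, SE 0.32, adjusted p = 0.0548). In each of these 3 genes every cKO pool lay above both controls, as the rule for naming them required.

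Among the other higher genes Ndfip2, an adaptor of ubiquitin ligases (1.16, SE 0.18), Tgm1, a transglutaminase (1.42, SE 0.22), and the ribosomal protein gene Rps3a1 (1.20, SE 0.19) also had an adjusted p of 0.0548. Zfp608 (1.16, SE 0.19), Olfm4, which marks a subset of neutrophils and sits in specific granules (0.86, SE 0.14), Rabggta, a subunit of the enzyme that prenylates Rab GTPases (0.98, SE 0.17), and Adam17, the protease that sheds TNF and L-selectin (0.92, SE 0.16), were at adjusted p 0.0648 to 0.0825. Olfm4 was the tightest of these, with 12.20, 12.14 and 12.20 in the cKO pools against 11.18 and 11.45.

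On the lower side Mfsd7a, a membrane transporter of the major facilitator family, read 6.84, 7.07 and 6.83 against 9.06 and 8.25 (log2 -1.74, SE 0.26, adjusted p = 0.0548). Lacc1, an enzyme of purine nucleoside metabolism, read 7.66, 6.99 and 7.87 against 9.45 and 8.96 (log2 -1.70, SE 0.27, adjusted p = 0.0599). Atp10a, a phospholipid flippase, read 7.52, 7.22 and 8.11 against 9.31 and 8.94 (log2 -1.51, SE 0.24, adjusted p = 0.0599). All 3 were lower in every cKO pool than in either control pool, which the same rule required.

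Further down this side were the mono-ADP-ribosyltransferase Parp11 (-1.09, SE 0.19), Mfge8, which bridges apoptotic cells to phagocytes (-0.69, SE 0.12), and the antiviral deaminase Apobec3 (-1.16, SE 0.21). The diacylglycerol kinase Dgkh (-0.86, SE 0.16), Dennd1a, an exchange factor for Rab35 (-0.81, SE 0.15), the RNA uridylyltransferase Tut4 (-1.26, SE 0.24) and Phf11c (-1.61, SE 0.31) completed the 10. Their adjusted p lay between 0.0836 and 0.1203. These 20 genes were chosen for groups that do not overlap, so leaving out any 1 of the 5 arrays could not turn their sign.

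Several genes with larger fold changes varied more between cKO pools. Nt5e (CD73), which makes extracellular adenosine, read 8.67, 10.49 and 8.55 against 7.10 and 7.16 (log2 2.10, SE 0.50, and 1.48 without cKO replicate 2). Tinf2, a telomere protein, read 9.15, 11.06 and 9.24 against 7.67 and 7.99 (log2 1.98, SE 0.48). In all 8 of the higher genes chosen for size (Nt5e, Tinf2, Fam160b2, Gclm, Nt5c2, Rdh12, Mpzl3 and Acvrl1) cKO replicate 2 was the highest cKO pool.

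The same pool was the lowest cKO pool in all 8 of the lower genes chosen for size (Trim12a, Gpr141b, Ccnyl1, Tagap1, Fap, Heatr9, Aoah and Lrrc8c). Trim12a read 11.33, 8.83 and 10.88 against 12.15 and 12.24 (log2 -1.85, SE 0.57, and -1.09 without cKO replicate 2), and in the flox control pools it read 5.68 to 6.0. Aoah, the lipase that inactivates LPS by removing acyl chains, read 9.49, 8.49 and 9.99 against 11.06 and 10.50 (log2 -1.46, SE 0.35). Rdh12 and Trim12a were the genes of these 16 whose log2 fold change moved by more than 1.5 times without cKO replicate 2.

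Genes of 7 interferon lists, which hold genes of sensing and signalling beside induced ones, read lower in the cKO than in the Cre control. Together the lists held 114 tested genes, of which 106 lay below 0 with a median log2 fold change of -0.40, where 47.7% of all genes lay below 0. At an unadjusted p under 0.05 were 52 lower and 4 higher genes, or 45.6% lower against 5.86% of all genes. The 3 cKO pools lay below both Cre controls in 80 of the 114, against 15.9% of all genes. Only Gbp8 passed the adjusted threshold. The cKO pools were not alike: replicate 2 was the lowest of the 3 in 91 of these genes and replicate 3 the highest in 94. Their median distances from the Cre control mean were -0.38, -0.68 and -0.13 for replicates 1, 2 and 3. Without replicate 1 the median was -0.41 with 36 genes lower at an unadjusted p under 0.05, and without replicate 2 it was -0.26 with 30. Leaving out Cre control replicate 1 left 13 such genes (11.4%, where all genes gave 2.47%) and leaving out Cre control replicate 2 left 25 (21.9%, where all genes gave 3.88%), with medians of -0.39 and -0.40. The flox control pools, which carry no Cre, lay nearer to the cKO than to the Cre control in 6 of the 7 lists by mean level, all but sensing and signalling. Nearer did not mean alike for the chromosome 7 TRIM cluster. Its mean level was 9.44 in the flox control, below both the cKO (10.50) and the Cre control (11.13). The PYHIN list had a mean level of 9.59 in the flox control, 9.61 in the cKO and 10.25 in the Cre control, and the guanylate-binding proteins 10.24, 10.13 and 10.88. As for the 10 genes above, these levels stand side by side without a test.

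Markers of macrophages and of T and NK cells also read lower, with medians further below 0 than those of the other cell types. Of 18 macrophage and monocyte markers 14 were lower (median -0.27), and their mean level was 8.90 to 9.02 in the cKO pools and 9.19 to 9.21 in the Cre control pools. Of 19 T and NK cell markers 17 were lower (median -0.24), with mean levels of 6.43 to 6.60 against 6.78 to 6.89. Fibroblast and endothelial markers were higher in 9 of 12 (median 0.11, and -0.29 without Cre control replicate 1). At an unadjusted limma p under 0.05 that list held 2 lower and 0 higher genes. The 4 tested B cell markers split into 2 and 2 (median -0.10). Dendritic cell and class II genes were lower in 10 of 15 (median -0.03). So were 5 of 8 eosinophil, basophil and mast cell markers (median -0.10) and 4 of 7 erythroid and platelet markers (median -0.05). The summed linear signal of the T and NK markers was 2091 to 2583 in the cKO pools and 3183 to 3466 in the controls, whereas that of the macrophage markers overlapped, at 29010 to 32450 and 32120 to 32230. The part of these cells in the interferon result was not tested, and in pooled cells fewer cells of a type and less RNA per cell cannot be told apart.

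**Figure D3:**
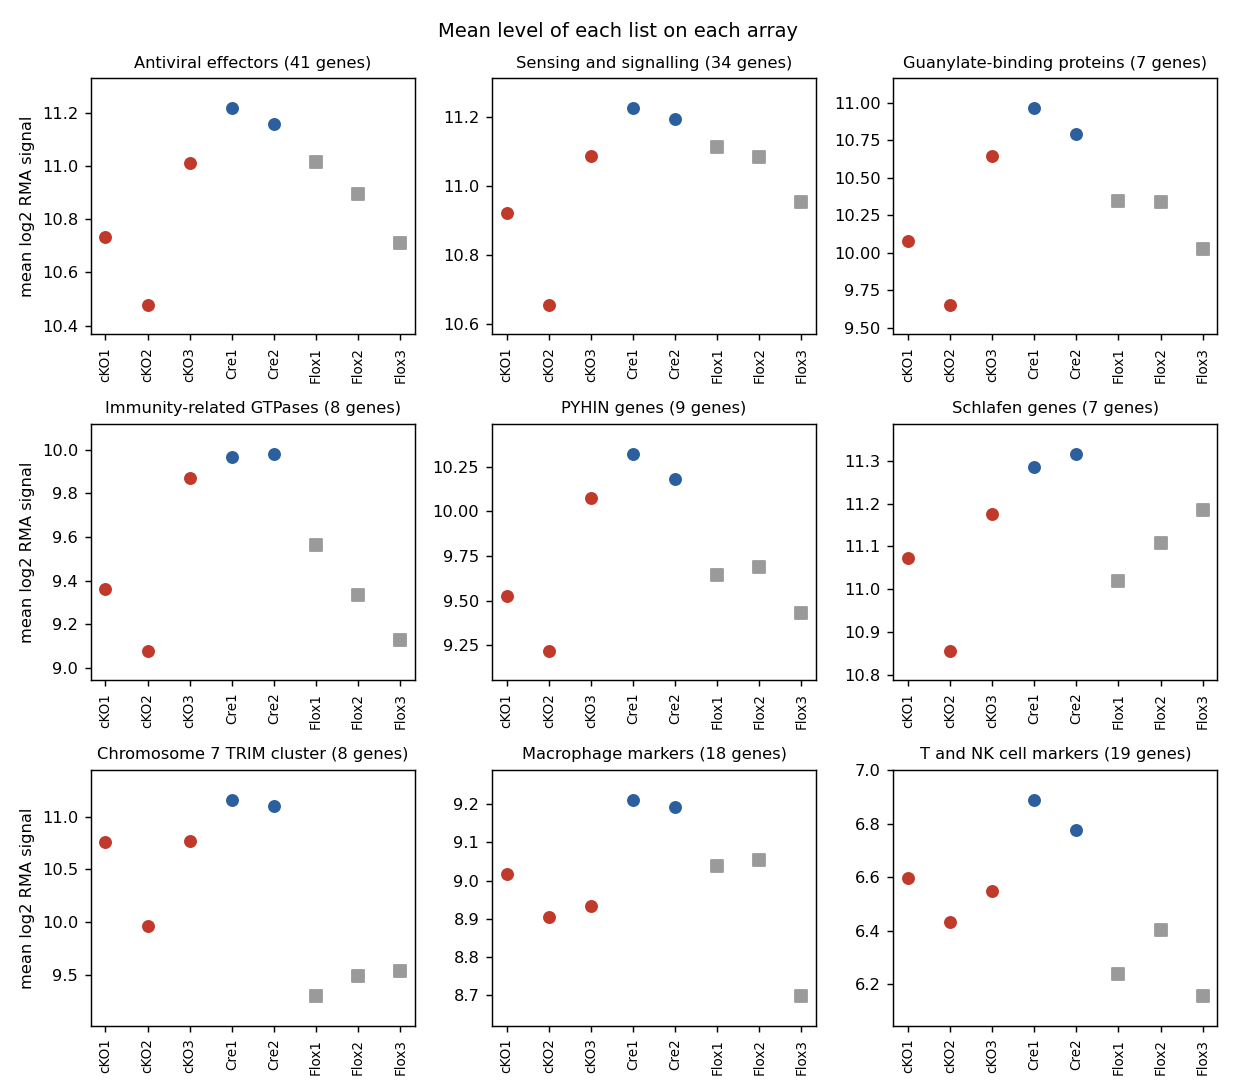
Mean log2 signal of the tested genes of each list on each array, with 1 point per array and an own axis range per panel. Red points are cKO pools, blue points Cre control pools and grey squares flox control pools. In all 9 lists the 3 cKO pools lie below both Cre control pools, and cKO replicate 2 is the lowest of the cKO pools.

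To place these genes beside their promoters, the letters GAAA, any 2 bases, GAAA, the core of the interferon-stimulated response element, were searched on both strands in the 250 bases before each gene's start in the RefSeq promoter table of GRCm38.p6, overlapping matches included. They were found in 936 of 27025 genes of that table (3.46%). The windows below are those of genes from 6 of the lists, the first 7 lower in the cKO and Trim12c higher, each at an unadjusted p under 0.05. These windows were taken by smallest p from list members that hold a match. Each runs 5′ to 3′ in the direction of its gene, and capitals mark 1 match per promoter, which reads TTTC, any 2 bases, TTTC where it lies on the opposite strand. Irgm1 holds 2 overlapping matches, and the part of its second that lies beyond the capitals is left in lower case.
Apobec3, chr15:79892243-79892302, plus strand: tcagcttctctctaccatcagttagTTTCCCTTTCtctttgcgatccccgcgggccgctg
Phf11b, chr14:59341346-59341405, minus strand: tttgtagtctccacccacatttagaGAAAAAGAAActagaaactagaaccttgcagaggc
Gbp5, chr3:142496744-142496803, plus strand: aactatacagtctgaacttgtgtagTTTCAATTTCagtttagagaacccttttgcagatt
Irgm1, chr11:48871421-48871475, minus strand: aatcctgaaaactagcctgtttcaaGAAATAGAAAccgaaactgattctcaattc
Ifi213, chr1:173599311-173599370, minus strand: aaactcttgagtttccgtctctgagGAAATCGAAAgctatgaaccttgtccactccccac
Slfn8, chr11:83020824-83020883, minus strand: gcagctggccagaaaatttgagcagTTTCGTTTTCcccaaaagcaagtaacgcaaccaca
Trim30d, chr7:104507856-104507915, minus strand: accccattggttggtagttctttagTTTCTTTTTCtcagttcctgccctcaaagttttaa
Trim12c, chr7:104353350-104353403, minus strand: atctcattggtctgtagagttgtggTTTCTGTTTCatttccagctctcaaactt

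Promoters of the antiviral list held the letters in 16 of 34 genes with an entry, those of the PYHIN list in 6 of 8, of the immunity-related GTPases in 4 of 5 and of the guanylate-binding proteins in 3 of 3. The list of sensing and signalling genes held them in 3 of 28, the Schlafen list in 2 of 6 and the chromosome 7 TRIM cluster in 3 of 8. Arf6, Gbp8, Mx1 and Mx2 had no entry. Over all tested genes with an entry, 346 carried the letters, and 15.3% of these read lower at an unadjusted p under 0.05, against 5.22% of the 9989 without them. For higher readings the shares were 6.36% and 8.15%. Outside the 7 lists the lower shares were 10.7% of 309 genes and 5.02% of 9934. In the setting without Cre control replicate 1 they were 3.76% and 2.22% over all genes, and without cKO replicate 1 8.67% and 4.49%. A match is a stretch of letters and no measured binding site; Emilin2 and Tgm1, both higher in the cKO, carry it too.

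Antiviral effectors, proteins that block steps of viral replication, were lower in 40 of 41 tested genes (median -0.34), 17 of them at an unadjusted p under 0.05 and none higher at that level. Such lower genes numbered 7 without Cre control replicate 1, 8 without Cre control replicate 2 and 11 without cKO replicate 2. Apobec3 read 10.92, 10.92 and 11.52 in the cKO pools against 12.30 and 12.26 (log2 -1.16, SE 0.21). The dynamin-like GTPase Mx1 read 6.91, 6.11 and 7.16 against 8.22 and 8.02 (log2 -1.39, SE 0.27), and Mx2 read 7.99, 7.64 and 8.55 against 9.68 and 9.19 (log2 -1.37, SE 0.31). In these 3 genes the cKO pools lay below both controls without overlap. Smaller differences were seen for the double-stranded RNA kinase Eif2ak2 (-0.38, SE 0.12), Ifit3 (-0.59, SE 0.20) and the zinc finger protein Zc3hav1 (-0.35, SE 0.12). The median was -0.33 without cKO replicate 1 and -0.21 without cKO replicate 2.

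Sensing and signalling genes were lower in 31 of 34 (median -0.37), 10 at an unadjusted p under 0.05. That count was 6 and 18 without cKO replicates 2 and 3, where 3.87% and 6.97% of all genes read lower. Without Cre control replicates 1 and 2, each leaving 1 control pool, the median was -0.35 and -0.34. The count of lower genes fell in both of these settings, as did the share of all genes. The kinase Tyk2, which binds the type I interferon receptor, read 8.46, 8.46 and 8.91 against 9.28 and 9.05 (log2 -0.55, SE 0.17). Ikbke, a kinase upstream of interferon induction, read 11.07, 10.16 and 11.43 against 12.01 and 11.61 (log2 -0.93, SE 0.31), and the RNA sensor Ifih1 was at -0.40 (SE 0.13). Opposite readings came from the interferon gamma receptor chain Ifngr1 (0.45, SE 0.14) and the transcription factor Irf3 (0.34, SE 0.12). The median was -0.35 without cKO replicate 1 and -0.21 without cKO replicate 2.

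Guanylate-binding proteins other than Gbp8 were also lower in 5 of 6 tested genes, Gbp10 being the exception. Gbp5, which promotes inflammasome assembly, read 12.36, 11.84 and 12.64 against 12.98 and 12.90 (log2 -0.66, SE 0.21). Gbp3 was at -0.98 (SE 0.36) and Gbp9 at -0.56 (SE 0.20). For this list the median was -0.62, with -0.59 without cKO replicate 1 and -0.35 without cKO replicate 2. These genes are close copies, so the values of single members are uncertain.

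Immunity-related GTPases, which act on pathogen vacuoles, were lower in 7 of 8 (median -0.56). Iigp1 read 6.23, 6.10 and 7.10 against 7.81 and 7.47 (log2 -1.16, SE 0.34), and Irgm1 10.58, 10.22 and 11.06 against 11.19 and 11.17 (log2 -0.56, SE 0.23). The exception was Irgc1 at 0.47 (SE 0.14). All 9 PYHIN genes, a family of DNA sensors and relatives in 1 cluster on chromosome 1, were lower (median -0.68), 7 at an unadjusted p under 0.05. That count was 3 without cKO replicate 1 and also without cKO replicate 2, and 0 and 4 without Cre control replicates 1 and 2. Ifi213 read 7.76, 7.13 and 8.56 against 9.03 and 8.75 (log2 -1.07, SE 0.33). Ifi205 was at -0.68 (SE 0.23) and Mndal at -1.0 (SE 0.36). Without cKO replicate 2 these medians were -0.34 and -0.45, and without cKO replicate 1 they were -0.53 and -0.67.

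Schlafen genes, growth regulators induced by interferon, were lower in 6 of 7 with a smaller median of -0.24, which was -0.06 without cKO replicate 2, -0.23 without cKO replicate 1, -0.44 without cKO replicate 3 and -0.13 without Cre control replicate 2. Slfn8 read 11.04, 10.86 and 11.20 against 11.70 and 11.61 (log2 -0.62, SE 0.19). The chromosome 7 TRIM cluster, a set of related ubiquitin ligase genes, was lower in 7 of 8 (median -0.78, and -0.88 without cKO replicate 1). Trim30d read 11.14, 8.90 and 10.74 against 11.86 and 11.99 (log2 -1.67, SE 0.57), and Trim34a 9.01, 8.15 and 8.53 against 9.74 and 9.65 (log2 -1.13, SE 0.26). Trim12c was the exception, and it differed from its near copy Trim12a in direction: 2.12 for the former and -1.85 for the latter. In the flox control pools Trim12c read 8.99 to 9.70 and Trim30d 7.63 to 8.79. Signal shared between such copies on the array cannot be told apart.

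Cytokine genes induced by LPS were lower in 17 of 25 (median -0.33, and -0.28 without cKO replicate 1), with 9 lower and 1 higher at an unadjusted p under 0.05. Il6 read 7.57, 6.59 and 7.32 in the cKO pools against 8.13 and 8.51 (log2 -1.16, SE 0.27). The anti-inflammatory cytokine Il10 read 7.35, 7.29 and 7.80 against 8.53 and 7.85 (log2 -0.71, SE 0.23), with cKO replicate 3 just below the lower control. Il27 was at -1.16 (SE 0.44), the death ligand Tnfsf10 at -1.17 (SE 0.42), Il12a at -0.74 (SE 0.31) and Il23a at -0.81 (SE 0.34). Osm, oncostatin M, read higher (0.41, SE 0.17). The list's median was -0.19 without Cre control replicate 1, with 1 lower gene at that level, and 2 were left without cKO replicate 2.

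Chemokine genes did not share a direction. Of 22 tested, 14 were lower (median -0.14), 4 read higher and 2 lower at an unadjusted p under 0.05, and the median was 0.02 without cKO replicate 2, -0.20 without cKO replicate 1, -0.09 without cKO replicate 3 or Cre control replicate 1 and -0.08 without Cre control replicate 2. Cxcl9, an interferon-induced attractant of T cells, read 10.01, 9.04 and 11.19 against 11.93 and 11.55 (log2 -1.66, SE 0.54), and Ccl5 was at -0.58 (SE 0.21). Cxcl3, a ligand of the receptor CXCR2, read 12.61, 13.21 and 12.62 against 12.01 and 12.06 (log2 0.77, SE 0.23), and Cxcl1 was at 0.55 (SE 0.22) with overlapping groups. Ccl6 was at 0.38 (SE 0.14). Prok2, which passed, was the fourth of the higher members.

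NF-kB pathway genes were lower in 20 of 24 (median -0.26, and -0.19 without cKO replicate 1), 7 of them at an unadjusted p under 0.05. Tnip3, an NF-kB-induced inhibitor of the pathway, read 10.27, 9.79 and 10.80 against 11.64 and 11.36 (log2 -1.21, SE 0.25). Tnfaip3 (A20), which removes ubiquitin chains in the same feedback loop, read 12.78, 12.80 and 13.02 against 13.38 and 13.20 (log2 -0.42, SE 0.13). The ubiquitin ligase Birc2 was at -0.56 (SE 0.18) and the subunit Relb at -0.39 (SE 0.15), whereas Ikbkg, the scaffold of the IKK complex, read higher (0.57, SE 0.21). Without Cre control replicate 1 the median was -0.15 with 1 lower gene at that level, and 4 and 3 were left without cKO replicates 1 and 2, against 11 without cKO replicate 3. Toll-like receptors and adaptors had a median of 0.02, with 4 members higher at an unadjusted p under 0.05 and none lower: Tirap (0.44, SE 0.13), Tlr6 (0.42, SE 0.14), Tlr5 (0.41, SE 0.14) and Tlr8 (0.63, SE 0.22). None of these 4 stayed below 0.05 without Cre control replicate 1.

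Inflammasome and gasdermin genes were lower in 12 of 14 (median -0.21, and -0.18 without cKO replicate 1). Nlrc4, which assembles the flagellin inflammasome, was at -0.47 (SE 0.16), and its sensors Naip5 and Naip6 at -0.40 (SE 0.17) and -0.54 (SE 0.23). The pore-forming gasdermin Gsdme stood against them with 7.76, 7.74 and 7.54 in the cKO pools and 6.88 and 6.99 in the controls (log2 0.75, SE 0.14).

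**Figure D4:**
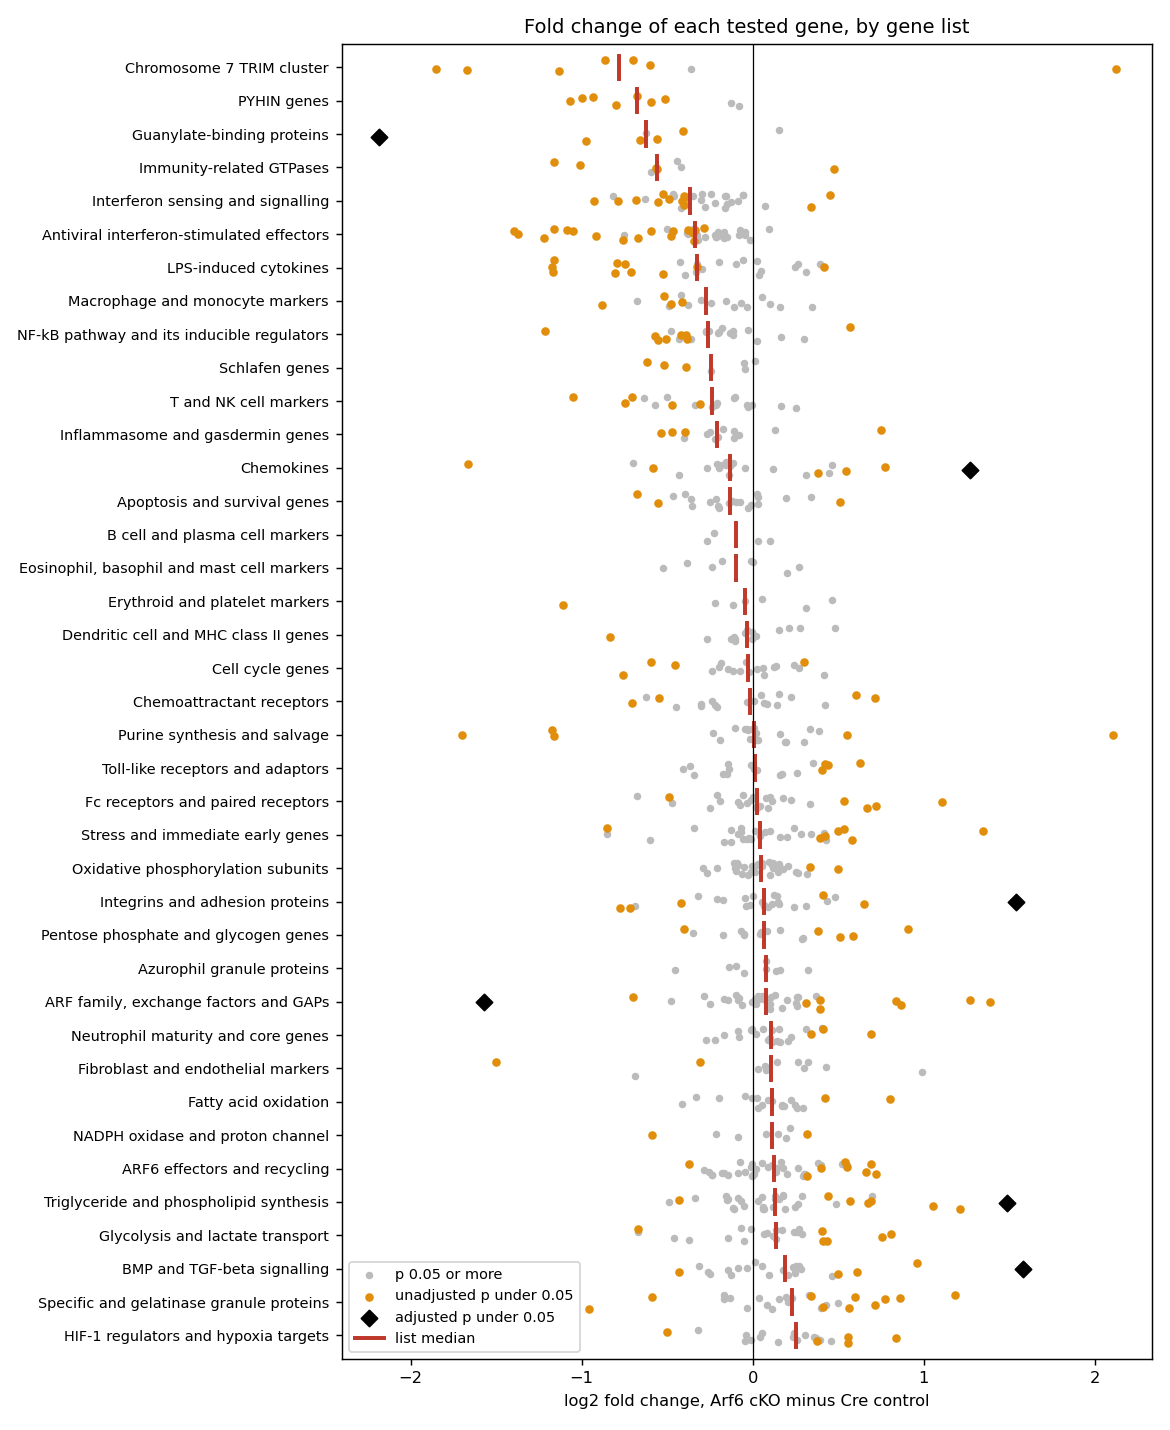
Log2 fold change (cKO minus Cre control) of each tested gene, 1 line per list, sorted by the list median (red bar). Grey points are genes at an unadjusted limma p of 0.05 or more, orange points those below it and black diamonds those past an adjusted p of 0.05. The interferon lists lie towards the top with medians of -0.24 to -0.78, and HIF-1, granule, BMP and glycolysis genes at the bottom with medians of 0.13 to 0.25.

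The series is titled for glycolytic metabolism, and here the glycolysis genes differed little. Of 23 tested, 15 were higher (median 0.13, and 0.06 without cKO replicate 1), none passed, and 5 were higher and 1 lower at an unadjusted p under 0.05. The lactate exporter Slc16a3 read 11.18, 11.57 and 10.89 against 10.40 and 10.41 (log2 0.81, SE 0.24). Pgk1 was at 0.43 (SE 0.15), Ldha, lactate dehydrogenase, at 0.41 (SE 0.16) and Pgam1 at 0.41 (SE 0.16). The other lactate transporter Slc16a1 read lower (-0.67, SE 0.20). Of the 5 higher readings the count was 3 without cKO replicate 1, 1 without cKO replicate 2 and 2 without either Cre control pool, and 4 genes were lower without cKO replicate 3.

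HIF-1 regulators and hypoxia targets were higher in 15 of 20, with the highest median of all lists (0.25, and 0.28 without cKO replicate 1). The histone demethylase Kdm3a read 9.56, 9.57 and 9.34 against 8.91 and 8.95 (log2 0.56, SE 0.12). Egln3 was at 0.55 (SE 0.20), Mxi1 at 0.83 (SE 0.31) and the HIF partner Arnt at 0.38 (SE 0.14), and the prolyl hydroxylase Egln2 at -0.50 (SE 0.15). At an unadjusted p under 0.05 were 4 higher and 1 lower, with 2 higher without cKO replicate 1 and 7 without cKO replicate 3. Genes of the pentose phosphate pathway and of glycogen had a median of 0.07 (0.03 without cKO replicate 2 and 0.16 without cKO replicate 3), with Pgm2 (0.59, SE 0.18), Gys1, glycogen synthase (0.51, SE 0.17), Pygl, glycogen phosphorylase (0.38, SE 0.13), and Pgd (0.91, SE 0.31) higher.

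Glycerolipid synthesis held the passing gene Gpat3 and was higher in 24 of 35 (median 0.13, and 0.11 without cKO replicate 1), 7 at an unadjusted p under 0.05. G0s2, an inhibitor of triglyceride lipase, read 11.44, 11.57 and 11.26 against 10.86 and 10.61 (log2 0.69, SE 0.14). Dgat2, which makes triglyceride from diacylglycerol, read 11.28, 12.62 and 11.96 against 10.95 and 10.85 (log2 1.05, SE 0.31). Agpat4 was at 0.67 (SE 0.18) and Hilpda, a lipid droplet protein, at 1.21 (SE 0.40). Lower at that level was only the acyl-CoA synthetase Acsl5 (-0.43, SE 0.18). Of the members named only Gpat3 passed the adjusted threshold.

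Fatty acid oxidation genes (median 0.11, 14 of 19 higher) and oxidative phosphorylation subunits (median 0.05, and 0.02 without cKO replicate 1, 22 of 36 higher) had 2 genes each at an unadjusted p under 0.05, all higher (0 to 3 higher genes over the omissions of single cKO or Cre control pools), and purine genes had a median of 0.00. Purine genes split: beside Lacc1 the phosphorylase Pnp (-1.17, SE 0.43) read lower, and beside Nt5e the deaminase Ampd3 (0.55, SE 0.17) read higher.

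Genes around Arf6 itself were described from 2 lists. Of 38 tested members of the ARF family with their exchange factors and GTPase-activating proteins, 26 were higher (median 0.08, with 0.07 without cKO replicate 1 and 0.14 without cKO replicate 2), Arf6 passed, and 7 were higher and 2, Arf6 included, lower at an unadjusted p under 0.05. Without Cre control replicate 1 there were 2 higher. Acap1, a GTPase-activating protein for ARF6, read 9.28, 9.35 and 9.23 against 8.23 and 8.67 (log2 0.83, SE 0.16). The exchange factor Cyth1 (cytohesin-1) read 8.73, 10.18 and 8.52 against 7.69 and 7.83 (log2 1.39, SE 0.44), again with cKO replicate 2 highest. Arfgef2 was at 0.87 (SE 0.26), Git2 at 0.39 (SE 0.13), and Adap2, another GTPase-activating protein, at -0.70 (SE 0.19).

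Effectors and recycling genes were higher in 26 of 40 (median 0.12, with 0.11 without cKO replicate 1, 0.06 without cKO replicate 2 and 0.07 without Cre control replicate 1). At an unadjusted p under 0.05 were 7 higher, a count of 4 without Cre control replicate 1. Beta-arrestin 2, Arrb2, read 9.49, 9.41 and 9.23 against 8.75 and 8.62 (log2 0.69, SE 0.14). Subunits of the exocyst, which tethers vesicles to the plasma membrane, included Exoc5 (0.72, SE 0.17) and Exoc3 (0.66, SE 0.17), and the endosomal GTPase Rab35 was at 0.55 (SE 0.16). Ehd4, a recycling ATPase, was at -0.37 (SE 0.16). No member of either list other than Arf6 passed the adjusted threshold.

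Specific and gelatinase granule genes were higher in 19 of 25 (median 0.23, and 0.30 without cKO replicate 1), 8 higher and 2 lower at an unadjusted p under 0.05, with 3 and 4 higher without Cre control replicates 1 and 2. Beside Olfm4 stood the stefin Stfa3 (1.18, SE 0.31), the protease Adam8 (0.77, SE 0.23) and the leukotriene B4 receptor Ltb4r1 (0.71, SE 0.20), which is also in the list of chemoattractant receptors. Cybb, the catalytic subunit of the NADPH oxidase, read 12.45, 12.10 and 12.81 against 13.11 and 12.97 (log2 -0.59, SE 0.19), and the chitinase-like Chil3 was at -0.95 (SE 0.39). Azurophil granule genes had no member at an unadjusted p under 0.05 (9 tested, median 0.08, and -0.04 without cKO replicate 1).

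Receptor and adhesion genes had medians near the background. Integrins and adhesion proteins (27 tested, median 0.07, and 0.00 without cKO replicate 1) included Emilin2, Thbs1 (0.65, SE 0.19), the integrin Itga4 (-0.78, SE 0.23) and Icam1, which read 11.71, 11.23 and 12.27 against 12.56 and 12.35 (log2 -0.72, SE 0.25). Fc and paired receptors (26 tested, median 0.02) included Cd300lb (1.11, SE 0.28) and the inhibitory receptor Sirpa (0.67, SE 0.18). Chemoattractant receptors (20 tested, median -0.01, and -0.12 without cKO replicate 1) included Ltb4r1, their highest member, the complement receptor C5ar2 (-0.55, SE 0.16) and the purinergic receptor P2ry2 (0.60, SE 0.20).

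BMP and TGF-beta genes, the list of Bmpr1a, were higher in 16 of 24 (median 0.19, and 0.14 without cKO replicate 1). Id2, a transcriptional inhibitor induced by BMP signals, read 11.38, 12.04 and 11.64 against 10.67 and 10.78 (log2 0.96, SE 0.20), and the receptor Tgfbr2 8.73, 8.71 and 8.66 against 7.91 and 8.28 (log2 0.61, SE 0.14). Eng was at -0.43 (SE 0.19). Without Cre control replicate 1 the median was 0.10. Apoptosis and survival genes were lower in 16 of 22 (median -0.13, and -0.06 without cKO replicate 2), with Bcl2a1a at -0.68 (SE 0.23) and the death receptor Tnfrsf10b at 0.51 (SE 0.15). Stress and immediate early genes had a median of 0.04 (0.18 without cKO replicate 2), with Sesn2 the first of 6 higher members at an unadjusted p under 0.05 (2 without Cre control replicate 1) and the phosphatase Dusp2 lower (-0.85, SE 0.31). Cell cycle genes had a median of -0.03, with Cks2 (-0.59, SE 0.13) and Mki67 (-0.76, SE 0.20) lower.

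Markers of other cell types were weak or uneven. Of 12 B cell markers on the array 7 lay at or below the median of all values in all 5 arrays, among them Ms4a1 and Cd79a, and so did 7 of 16 eosinophil, basophil and mast cell markers, among them Epx and Cpa3. Of 22 T and NK markers 16 lay above that median in all 5 arrays and Cd4 and Klrb1c at or below it. Granzyme B, Gzmb, read 9.18, 8.26 and 9.25 in the cKO pools against 9.73 and 10.17 (log2 -1.05, SE 0.41). The transcription factor Eomes read 4.91, 5.16 and 5.13 against 5.95 and 5.60 (log2 -0.71, SE 0.15). Eomes lay below the median of all values in every cKO pool and above it in both Cre control pools. Its fitted difference is thus against a level that may be background, and no fold is read from it. Of 19 macrophage markers 18 lay above the median of all values in all 5 arrays and Cd163 did not; Apoe was at -0.52 (SE 0.16) and C1qa at -0.41 (SE 0.16). Dendritic cell and class II genes had a median of -0.03, with Cd40 at -0.83 (SE 0.16), the only 1 of 15 at an unadjusted limma p under 0.05. Each of these lists also had higher members. The highest was at 0.48 for dendritic cell and class II genes, 0.35 for macrophage and 0.25 for T and NK markers. Neutrophil core genes were higher in 16 of 24 (median 0.11, and 0.05 without cKO replicate 2).

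Where the genes lie along the chromosomes was described next. Of the 50 tested genes nearest to Arf6, 25 on each side, 7 read higher and 1 lower at an unadjusted p under 0.05, or 16%, against 13.6% of all genes. They were Klhl28, Klhdc2, Nemf, 5830428M24Rik, Sos2, Cdkl1, Pygl and Tmx1. The 50 nearest to 1700047M11Rik held 9 higher and none lower (18%), and those of the other 8 called genes held 8% to 22%.

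Chromosome 14 held the highest share of genes at an unadjusted p under 0.05, 82 of 461 tested (17.8%). The share was 13.6% of all genes and 16% on chromosome 18, the next in rank. Within it the run from Lats2 to Kpna3 held 14 of 21 such genes, 10 lower and 4 higher, the most of any 21 neighbouring genes. The fullest run on another chromosome, chromosome 9, held 11 of 21. It was found after the values were seen and has no test. Phf11a, Phf11b and Phf11d, which belong to the antiviral list, and their neighbour Phf11c make up part of it, at -0.91 to -1.61, and the adjoining methyltransferase gene Setdb2 read 8.25, 7.40 and 8.82 against 9.67 and 9.47 (log2 -1.42, SE 0.33). Without cKO replicate 1 the run held 8 lower and 3 higher genes, and without Cre control replicate 1 it held 6 lower and 2 higher. A second stretch, Tinf2, Tgm1, Rabggta and Dhrs1, lay side by side with 4 higher readings of 0.83 to 1.98.

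**Figure D5:**
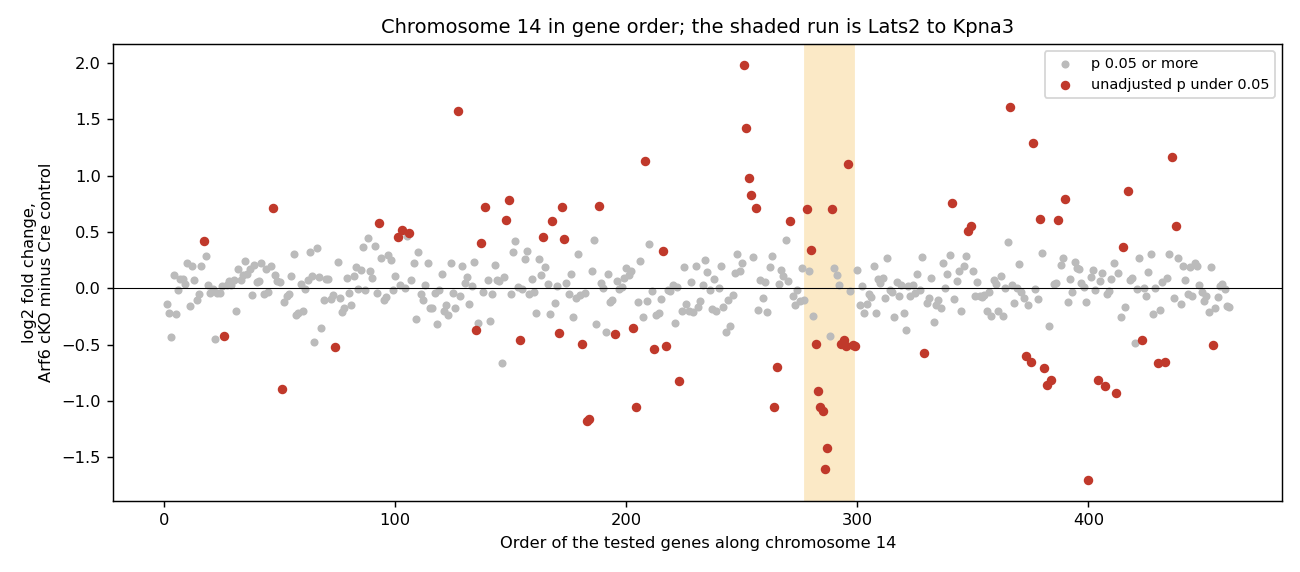
Log2 fold change (cKO minus Cre control) of the 461 tested genes of chromosome 14 in gene order. Red points have an unadjusted limma p under 0.05, grey points do not, and the shaded run from Lats2 to Kpna3 holds 10 lower and 4 higher red points.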

How the data were processed

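Expression in the neutrophil pools was read on Affymetrix arrays of the Mouse Gene 2.0 ST design, from 100 ng of RNA with an integrity number of at least 7, per the labels' protocols. The deposited values are log2 probe set signals, which the authors background-subtracted and normalized by Robust Multiarray Analysis (RMA, Affymetrix Expression Console, version not given in the sources used here), per the series' design text. RNA isolation reagent and labelling kit differ between the design text and the labels. No further scaling was applied.

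Of 34472 probe sets, 23521 carried 1 gene symbol, 1814 several and 9137 none. Those with 1 symbol that exceeded the median of all values (5.45) on at least 2 arrays were compared by limma 3.58.1 (R 4.3.3). The fit held all 3 groups, with 5 residual and 4.69 prior degrees of freedom, and was two-sided, with Benjamini-Hochberg adjustment over all 14002 probe sets and a threshold of 0.05. An exact permutation test of 3 against 2 arrays cannot go below p = 0.2. The fit was tested on simulated data. Lists used the brightest probe set per gene and are described by counts and medians without a test. Their members were chosen with earlier results of these data known. Genes named were Arf6, those past the threshold, up to 10 per direction by p, up to 8 by size (unadjusted p under 0.01) without overlap, leaving out predicted and small RNA genes, and list members by p. Gene order and promoters came from RefSeq tables of GRCm38.p6. The platform annotation can be old; 23328 of the 23521 probe sets matched RefSeq by gene identifier. The number of arrays limits the precision. Alternatives covered filters, scaling, variance models, array weights, the 5 arrays alone and leaving out each array; the run on chromosome 14 and a 300-base promoter window were added after seeing the data.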

Additional observations from a re-analysis of the deposited data

Results flagged for a closer look

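Of 4660 probe sets above the same signal filter that carry no symbol or several, which the gene comparison left out, 2 passed an adjusted p of 0.05 in a fit over all probe sets above the filter, named or not. Both are signals outside the genes compared. Each was above the filter on no array of one of the groups compared, so it had to differ, and its difference is against a level that may be background. Probe set 17280292 read 7.01, 7.47 and 7.47 in the cKO pools, 4.83 and 4.77 in the Cre control pools and 7.17 to 7.43 in the flox control pools. It was higher in the cKO by 2.52 on the log2 scale (adjusted p = 0.0015, limma). Probe set 17350914 read 4.50, 4.31 and 4.70 against 6.58 and 6.46, with 3.82 to 4.48 in the flox control pools, a difference of -2.01 (adjusted p = 0.0123). It passed the filter through the 2 Cre control pools alone. Neither could be named from the tables at hand.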

How the results depend on the processing

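The count of 10 genes was 5 without a filter on dim probe sets, 5 with the 5 arrays compared alone, 5 with probe sets of several symbols or none tested too (beside 2 probe sets of that kind), 4 without the pair of pools whose sex-linked transcripts differed (cKO replicate 1 and flox control replicate 1) and 145 with array weights, and 8 to 13 in the other settings that kept all arrays. Gm6568, counted in the 10, passed the filter through the Cre control pools alone. Leaving out each array in turn gave 0 to 67 genes. Array weights ranged from 0.48 to 2.56. For Arf6 the log2 fold change was -1.69 without that pair, and -1.69 to -1.48 over the omissions of single arrays, with an adjusted p of 0.0052 to 0.407 over all alternatives. Centring each array on its median moved the median of all genes from 0.01 to 0.05 and the split of probe sets at an unadjusted p under 0.05 from 1051 higher and 834 lower to 1278 and 643. None of the 10 genes changed its sign in any alternative. Their cKO and Cre control pools do not overlap, so omitting an array could not turn a sign, and this adds no support. Of 38 list medians 28 kept their sign throughout, the 7 interferon lists among them, and 10 turned in at least 1 alternative: chemokines, Toll-like, chemoattractant receptor, azurophil, purine, cell cycle, dendritic cell, eosinophil, erythroid and fibroblast lists, all with a main median of at most 0.14 in size; 31 moved by over 1.5 times in at least 1. The cause of these changes was not tested. With the 300-base promoter window, 64 of 394 genes with the response element letters (16.2%) read lower at an unadjusted p under 0.05, against 5.13% of the 9941 without. No paired analysis was possible because the labels give the pools running numbers that no 2 groups share. How many genes passed thus hung on single pools of every group, and no interferon gene but Gbp8 passed in the main fit.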
